A study of Mus musculus with 37 samples.

Results

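A set of 10 genes that carry or control water and ions at the surface of the colon was followed through 37 mouse colon arrays. They are Aqp8, Slc26a3, Slc9a3, Car1, Car4, Atp12a, Scnn1a, Scnn1b, Scnn1g and Nr3c2, 10 of the 19938 genes measured. Each was chosen by its symbol, as the transcript cluster (the array's set of probes for a gene) annotated to that symbol alone, and each of the 10 had exactly 1 such cluster. The study asked how colitis changes gene expression in mice with and without Timp1, the tissue inhibitor of metalloproteinases 1. Wild types were C57BL/6J mice. Knockouts were of the strain B6.129S4-Timp1tm1Pds/J, in which Timp1 is inactivated by gene targeting throughout the animal. Dextran sodium sulphate (DSS), a sugar polymer given orally that injures the lining of the colon, was used to bring about acute or chronic colitis, and both protocols had separate controls without DSS. The acute protocol gave 3 wild-type controls, 5 wild types on DSS, 3 knockout controls and 6 knockouts on DSS. The chronic protocol gave 5 mice in each of the corresponding 4 groups. Each array held RNA of the snap frozen colon of 1 mouse. Ages, sex, DSS doses and the number of DSS cycles are not given in the labels, and neither is whether wild types and knockouts were littermates. Signal of Y-linked genes was seen in 2 arrays only, knockout acute control replicate 2 and knockout acute DSS replicate 4.

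The colon recovers water by first moving salt. At the luminal face of the surface colonocyte, Slc9a3 (NHE3) exchanges sodium for protons and Slc26a3 (DRA) exchanges chloride for bicarbonate, with the carbonic anhydrases Car1 in the cytosol and Car4 on the membrane supplying both protons and bicarbonate. In the distal colon the epithelial sodium channel, built from the Scnn1a, Scnn1b and Scnn1g subunits (alpha, beta and gamma), adds a sodium route under control of aldosterone, which acts through the mineralocorticoid receptor Nr3c2. Atp12a is the catalytic subunit of the colonic proton-potassium pump, which recovers potassium, and Aqp8 is a water channel of the absorptive cells. Loss of Slc26a3 causes a congenital chloride diarrhoea, and disturbed salt absorption is a known feature of colitis.

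Expression is given as log2 signal after robust multi-array averaging, so a difference of 1 is a doubling, and signals of different genes are not set against each other. Differences are given ± the standard error (SE) of a limma fit with a mean for each of 8 groups, and a gene passed when its adjusted p (Benjamini-Hochberg over 19938 genes) was under 0.05. Array medians lay between 7.67 and 7.76, and the number of arrays limits the precision. Timp1 checked the labels in part. It lay at 9.47 to 12.19 in the 5 wild types on acute DSS and at 7.10 to 8.68 in the 6 knockouts on acute DSS, and whether its probes lie in the altered part of the gene is not known here. Under chronic DSS the ranges overlapped, at 7.20 to 9.27 in wild types and 6.83 to 7.30 in knockouts. In the chronic controls the means were 7.13 and 7.14, so Timp1 does not check the labels there. Pan-epithelial markers (10 genes such as Epcam and Cdh1) and smooth muscle markers were bright in all groups (group means 11.91 to 12.54 and 12.20 to 12.73), as in whole colon wall. The animal numbers in the labels fall into 4 series, which were taken as possible batches. Series 1 held all acute wild types and knockout acute DSS replicates 1 to 3, and the rest of the acute knockouts (all controls, and DSS replicates 4 to 6) were of series 2. Series 3 held all wild types on chronic DSS and wild-type chronic controls 1 to 3, and series 4 held wild-type chronic controls 4 and 5 and all chronic knockouts. Genotype and series therefore cannot be told apart in the acute controls and under chronic DSS.

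Acute DSS in wild types was the comparison in which the transport genes moved most. There, 6 of the 10 genes fell (Aqp8, Slc26a3, Car4, Atp12a, Scnn1a and Nr3c2), against 21.8% of all genes that passed downward, and none rose, against 19.4%. The median difference of the 10 was -1.82, against 0.01 over all genes. In the same 6 genes every DSS array lay below every control array, which held downward for 21.4% of all genes. In whole colon, fewer colonocytes and less RNA per colonocyte cannot be told apart. Chronic DSS in wild types lowered 3 of the 10 (Atp12a, Scnn1g and Nr3c2), against 8.58% of all genes, with a median of -0.62, and raised none, against 5.79%. There 7 of the 10 lay below the controls without overlap, against 8.76% of all genes. In knockouts, none of the 10 passed under acute DSS (0.853% of all genes passed downward and 0.266% upward) or chronic DSS (5.47% and 2.47%), and the medians were -0.52 and -0.26. At an unadjusted limma p under 0.05 the counts in knockouts were 0 under acute and 1 under chronic DSS, Atp12a. Without overlap, 2 of the 10 lay below the controls under acute DSS, against 3.68% of all genes, and 1 under chronic DSS, against 5.52%. All knockout acute controls were of series 2. Within that series the 3 DSS arrays lay below the 3 controls in Aqp8, Slc26a3, Car4, Scnn1a and Nr3c2. The share of all genes was not counted for that split. Passing in one genotype and not in the other is no test of the genotypes, which follows after the single genes.

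**Figure D1:**
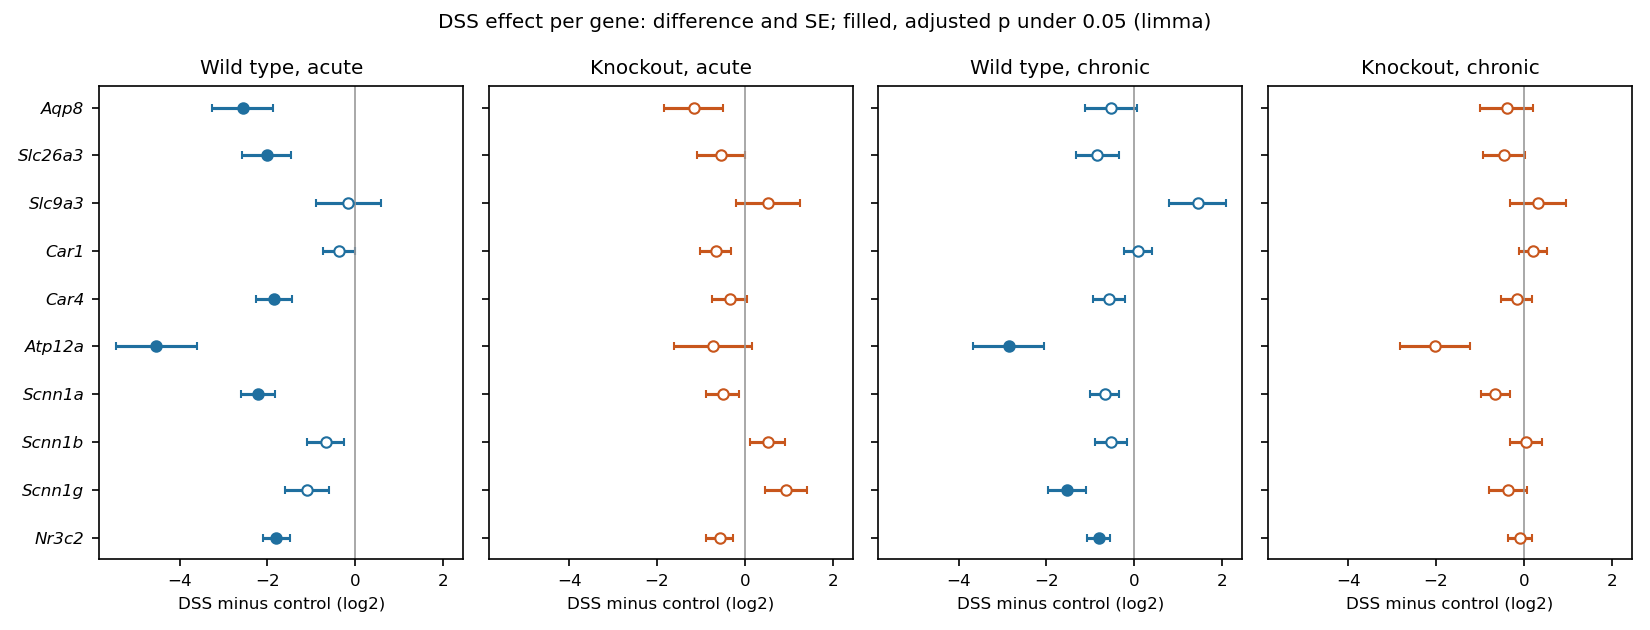
DSS minus control for each gene (log2, horizontal axis) in wild types and knockouts under acute and chronic DSS, with bars of 1 SE from limma and filled points where the adjusted p was under 0.05. The filled points are 6 genes in acute wild types and 3 in chronic wild types, and there are none in knockouts.

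Aqp8, the water channel, fell 5.92-fold in wild types on acute DSS. Its control signals were 12.51, 12.65 and 12.61, and the 5 DSS mice (replicates 1 to 5) gave 8.48, 11.72, 7.09, 11.38 and 11.45. All 5 were below the controls, but replicates 1 and 3 lay far below the other 3, and the difference of -2.57 ± 0.69 (adjusted p = 0.00371) drew much of its size from them. Without these 2 arrays it was -1.07 and did not pass (adjusted p = 0.103), and fitted on its own 2 groups alone it did not pass either (adjusted p = 0.102). Replicates 1 and 3 were picked after the data were seen, and leaving out the lowest arrays of 1 group makes a fall smaller in any case. Here and below, fits without them describe the other arrays and are no independent check. In knockouts on acute DSS Aqp8 ranged from 9.33 to 11.88 with a median of 11.40, below all 3 knockout controls (12.48, 12.19 and 11.91), yet the difference of -1.16 ± 0.67 did not pass (adjusted p = 0.403). Chronic DSS gave 12.37, 11.83, 11.11, 12.45 and 11.86 in wild types against controls of 12.17 to 12.57 (-0.53 ± 0.60, adjusted p = 0.643). In chronic knockouts 4 of 5 DSS arrays lay between 12.38 and 12.58, inside the control range of 12.21 to 12.63, and replicate 4 alone lay at 10.00.

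Slc26a3, the chloride-bicarbonate exchanger, followed the same arrays. Wild-type acute controls gave 12.99, 12.94 and 12.84, and DSS arrays 10.17, 12.24, 7.79, 12.13 and 12.22. Replicates 2, 4 and 5 were thus tightly grouped below the controls, and replicates 1 and 3 were far lower. The gene fell 4.05-fold (-2.02 ± 0.56, adjusted p = 0.00474), but without those 2 arrays the value was -0.73 (adjusted p = 0.0555) and in a fit of the 2 groups alone the adjusted p was 0.153. In knockouts on acute DSS it ranged from 11.17 to 12.82 with a median of 12.27, overlapping their controls at 12.61 to 12.72 (-0.54 ± 0.54, adjusted p = 0.664). Under chronic DSS the wild types gave 12.31, 11.97, 11.22, 12.51 and 12.26, all below their controls at 12.74 to 13.10. That difference of -0.84 ± 0.49 did not pass (adjusted p = 0.279) with the spread shared over 8 groups, and passed in a fit of those 2 groups alone (adjusted p = 0.0115).

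Slc9a3, the sodium-proton exchanger that works beside Slc26a3, was not called lower under DSS, although replicates 1 and 3 were again the lowest of the wild types on acute DSS. Slc9a3 and Slc26a3 gave r = 0.88 over the DSS arrays, 0.06 over the control arrays and 0.41 over all 37. In wild-type acute controls it lay at 11.06, 11.92 and 11.10, and in DSS arrays at 10.31, 12.60, 8.01, 12.52 and 12.57. Replicates 2, 4 and 5 were above every control and replicates 1 and 3 below every control, so that the mean difference was -0.16 ± 0.74 (adjusted p = 0.884). Without replicates 1 and 3 it was 1.20 (adjusted p = 0.131). The 6 knockouts on acute DSS ranged from 11.08 to 13.13 with a median of 12.27, against controls of 12.10, 11.95 and 10.99 (0.53 ± 0.72, adjusted p = 0.761). The wild-type chronic controls fell into sets that followed the animal series. The 3 of series 3 gave 8.39, 9.15 and 9.37, and the 2 of series 4 gave 12.07 and 11.35. All 5 chronic DSS mice were of series 3 and gave 11.91, 11.75, 10.16, 11.83 and 11.89. Over all arrays the chronic difference was 1.44 ± 0.64 (adjusted p = 0.139), and within series 3 it was 2.54 (adjusted p = 0.00326, and 0.00828 with series as a covariate in the full fit), so Slc9a3 was higher under DSS in the series that holds both groups.

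Promoters of Slc26a3 and Car4, the pair of members whose signals ran closest together, and of Slc9a3, which did not pass in wild types on acute DSS, are shown for comparison. The sequences come from RefSeq (GRCm38.p6) and hold 250 bases before and 50 after the annotated start site, 5′ to 3′ on the plus strand, with motif matches in capitals. RefSeq promoters were matched for 7 of the 10 genes, and those of Car1, Atp12a and Scnn1a were not.
Slc26a3, chr12:31437969-31438268: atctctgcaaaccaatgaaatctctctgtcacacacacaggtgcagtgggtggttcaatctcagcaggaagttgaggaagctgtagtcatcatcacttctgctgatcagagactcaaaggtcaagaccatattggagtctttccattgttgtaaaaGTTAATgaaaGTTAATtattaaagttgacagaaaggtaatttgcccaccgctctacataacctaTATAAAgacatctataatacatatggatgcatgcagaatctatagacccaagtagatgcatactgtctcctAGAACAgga
Car4, chr11:84957504-84957803: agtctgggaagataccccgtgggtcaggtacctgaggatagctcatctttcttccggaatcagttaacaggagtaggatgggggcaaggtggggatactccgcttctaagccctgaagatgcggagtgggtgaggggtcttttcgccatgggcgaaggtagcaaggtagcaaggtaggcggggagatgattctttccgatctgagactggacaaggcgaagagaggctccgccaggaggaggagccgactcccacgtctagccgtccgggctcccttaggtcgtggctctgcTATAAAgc
Slc9a3, chr13:74121163-74121462: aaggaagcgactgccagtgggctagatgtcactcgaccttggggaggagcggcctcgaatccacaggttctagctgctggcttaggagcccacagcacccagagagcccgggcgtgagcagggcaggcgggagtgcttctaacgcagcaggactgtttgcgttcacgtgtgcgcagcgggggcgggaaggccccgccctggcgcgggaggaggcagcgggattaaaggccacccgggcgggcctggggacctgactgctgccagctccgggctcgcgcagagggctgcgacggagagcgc
Both strands were searched for 5 short motifs. The HNF1-type motif GTTAAT occurred in 7.10% of 32851 mouse promoters of the same length, and the TATA box motif TATAAA in 13.6%. The steroid receptor motif TGTTCT occurred in 19.0%. For the HNF4-type motif CAAAGTC the share was 4.44%. The CDX-type motif TTTATGG was the rarest, at 2.75%. No matches of different motifs overlapped in the 7 windows. Slc26a3 held GTTAAT at both -94 and -84, TATAAA at -30 and, on the other strand, TGTTCT at 42, counted with the start site as 1. Car4 held TATAAA only, downstream of the start site, and none of these letters occurred in the windows of Slc9a3, Aqp8, Scnn1b, Scnn1g and Nr3c2. The windows also differed in base composition, with 39.3% G and C in Slc26a3, 57.3% in Car4 and 68.7% in Slc9a3. These matches describe letters and show no binding.

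**Figure D2:**
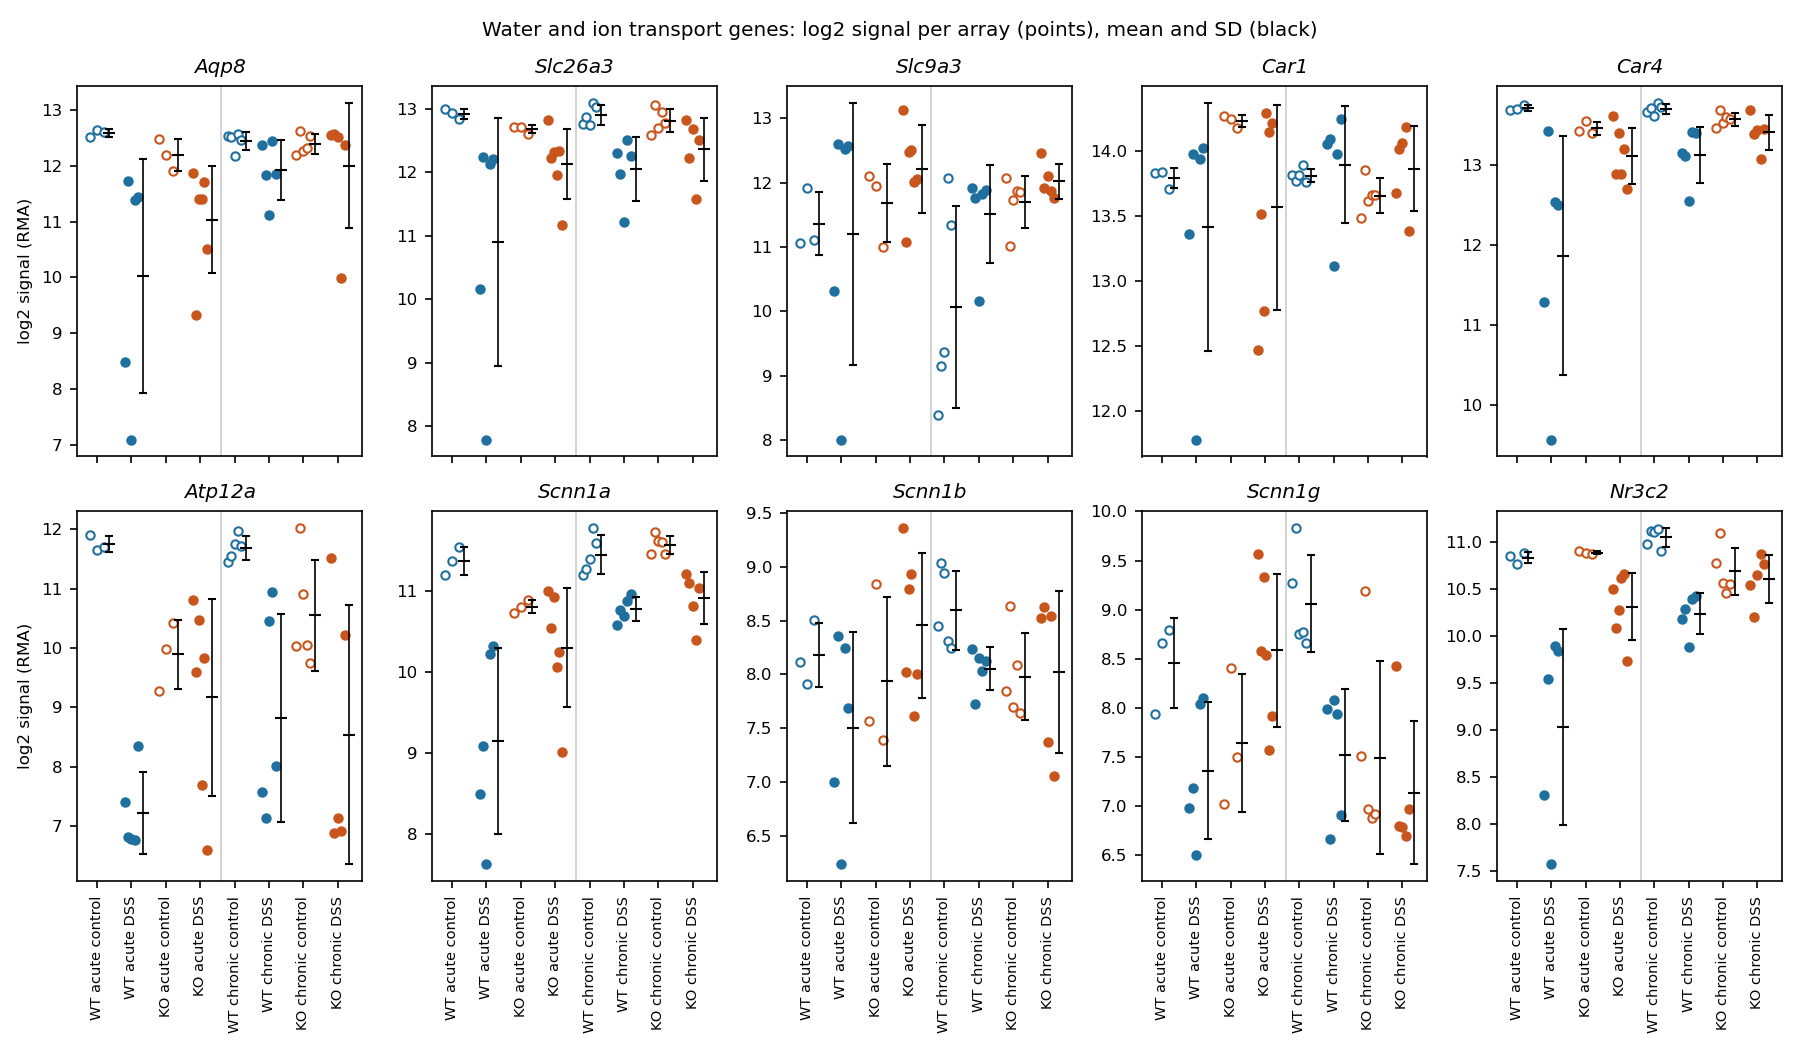
Log2 signal of each gene in every array (points; open for control, filled for DSS, blue for wild type, orange for knockout), by group, with mean and SD in black; each panel has its own axis. Atp12a is low in all 5 wild types on acute DSS, Slc26a3 and Car4 are very low in 2 of them, and Slc9a3 is low in 3 of 5 wild-type chronic controls.

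Car4, the carbonic anhydrase anchored to the outer membrane, fell 3.60-fold in wild types on acute DSS (-1.85 ± 0.41, adjusted p = 6.49e-04). Controls were 13.69, 13.70 and 13.75, and DSS arrays 11.28, 13.42, 9.57, 12.54 and 12.50. The order of the arrays was that of Slc26a3 at the bottom, with replicates 3 and 1 lowest. Without those 2 the fall was -0.89 and still passed, while the fit of the 2 groups alone did not call it (adjusted p = 0.0976). With acute DSS the knockouts ranged from 12.70 to 13.61 with a median of 13.04, against controls of 13.43, 13.55 and 13.40 (-0.35 ± 0.40, adjusted p = 0.712). Wild types on chronic DSS lay at 12.55 to 13.41, all below their controls at 13.61 to 13.78, with -0.58 ± 0.36 (adjusted p = 0.324, and 0.0121 in the fit of the 2 groups alone).

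Car1, the cytosolic carbonic anhydrase of colonocytes, gave another picture. In wild-type acute controls it was 13.83, 13.84 and 13.70, and under DSS 13.36, 13.97, 11.78, 13.94 and 14.02. Of the 5 DSS arrays 3 were above every control and replicates 1 and 3 below, with no call (-0.37 ± 0.37, adjusted p = 0.431). Among knockouts on acute DSS, the arrays of series 1 lay at 12.47, 13.52 and 12.77 and those of series 2 at 14.29, 14.14 and 14.21. The knockout controls, all of series 2, lay at 14.27, 14.24 and 14.18. The difference of -0.66 ± 0.36 (adjusted p = 0.355) thus shrank to -0.01 within series 2. Chronic DSS left Car1 at 13.11 to 14.24 in wild types (0.09 ± 0.32, adjusted p = 0.909) and at 13.39 to 14.18 in knockouts (0.21 ± 0.32, adjusted p = 0.744).

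Atp12a, the colonic proton-potassium pump, had the largest fall of the 10 in wild types on acute DSS, 23.1-fold (-4.53 ± 0.92, adjusted p = 2.41e-04). Controls gave 11.91, 11.66 and 11.71, and DSS arrays 7.41, 6.82, 6.78, 6.76 and 8.36. In contrast to Slc26a3, the 5 DSS arrays lay together, and without replicates 1 and 3 the value was -4.44. The groups of chronic mice were split. Wild types on chronic DSS gave 7.58, 7.13, 10.46, 10.95 and 8.01 against controls of 11.45 to 11.97, a fall of 7.27-fold (-2.86 ± 0.80, adjusted p = 0.0140, and -2.76 with series as a covariate). Chronic knockouts gave 11.53, 6.89, 7.14, 6.91 and 10.22 under DSS against 10.03, 12.03, 10.91, 10.05 and 9.74 in controls. Of those 5 DSS arrays 3 were below every control, and the difference of -2.02 ± 0.80 did not pass (adjusted p = 0.115). Knockouts on acute DSS gave 10.81, 9.60 and 10.48 in series 1 and 7.70, 9.83 and 6.60 in series 2, with overlap between the series. The difference from the knockout controls (9.28, 9.98 and 10.43) was -0.72 ± 0.89 (adjusted p = 0.733) and -1.85 within series 2.

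Hoxb13, a homeobox gene of the distal-most colon, had the profile most like that of Atp12a among all genes (Pearson r = 0.95 over 37 arrays, which share group, treatment and series). Hoxb13 gave 11.74, 11.41 and 11.80 in wild-type acute controls and 7.59, 6.35, 7.69, 7.58 and 7.84 under DSS, a fall of -4.24 ± 0.90 (adjusted p = 3.58e-04). It also fell in chronic wild types (-2.70 ± 0.78, adjusted p = 0.0170) and chronic knockouts (-2.68 ± 0.78, adjusted p = 0.0297). The wild types on chronic DSS with Atp12a at 10.46 and 10.95 had Hoxb13 at 10.70 and 10.51, and those with Atp12a at 7.58, 7.13 and 8.01 had 7.56, 6.83 and 8.80. In knockouts on acute DSS, replicates 4 and 6, lowest in Atp12a, were also lowest in Hoxb13 at 7.24 and 6.93. Hoxb13 thus moved with Atp12a from array to array, and another posterior Hox gene, Hoxa13, did so only in part. Hoxa13 was low with Atp12a in knockout acute DSS replicates 4 and 6 (7.55 and 8.41) and in knockout chronic DSS replicate 4 (8.13). It stayed at 10.22 and 10.12 in knockout chronic DSS replicates 2 and 3, where Atp12a was 6.89 and 7.14. The part of these genes in the Atp12a differences was not tested.

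Several genes of intestinal position differed between the same arrays as Slc9a3, though not all in the same direction or to the same extent. Hoxd13, a homeobox gene of the hindgut, was picked after its values were seen. In the wild-type chronic controls of series 3, with low Slc9a3, Hoxd13 was 11.37, 11.42 and 11.48, and in those of series 4 it was 8.81 and 9.13. Cdx2, an intestinal transcription factor whose profile was the second closest to that of Slc9a3 (r = 0.86 over 37 arrays), was 8.44, 8.78 and 8.74 in the former and 9.93 and 10.37 in the latter. Hoxd12 (8.87, 9.09 and 9.26 against 7.38 and 7.24) and Hoxd11 (10.09, 10.27 and 10.22 against 7.87 and 8.11) split as Hoxd13 did. So did Hoxd10 (10.26, 10.37 and 10.32 against 8.14 and 8.27). Hoxb13 (11.45, 11.62 and 11.65 against 11.56 and 11.64) did not show that split. Hoxa13 (10.04, 10.32 and 10.29 against 10.57 and 10.55) differed little, with the series 3 values the lower. In wild types on chronic DSS Hoxd13 was lower (-2.64 ± 0.49, adjusted p = 3.62e-04) and Cdx2 higher (1.62 ± 0.40, adjusted p = 0.00542) than in the controls. The part of these genes, or of series, in the Slc9a3 differences was not tested.

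**Figure D3:**
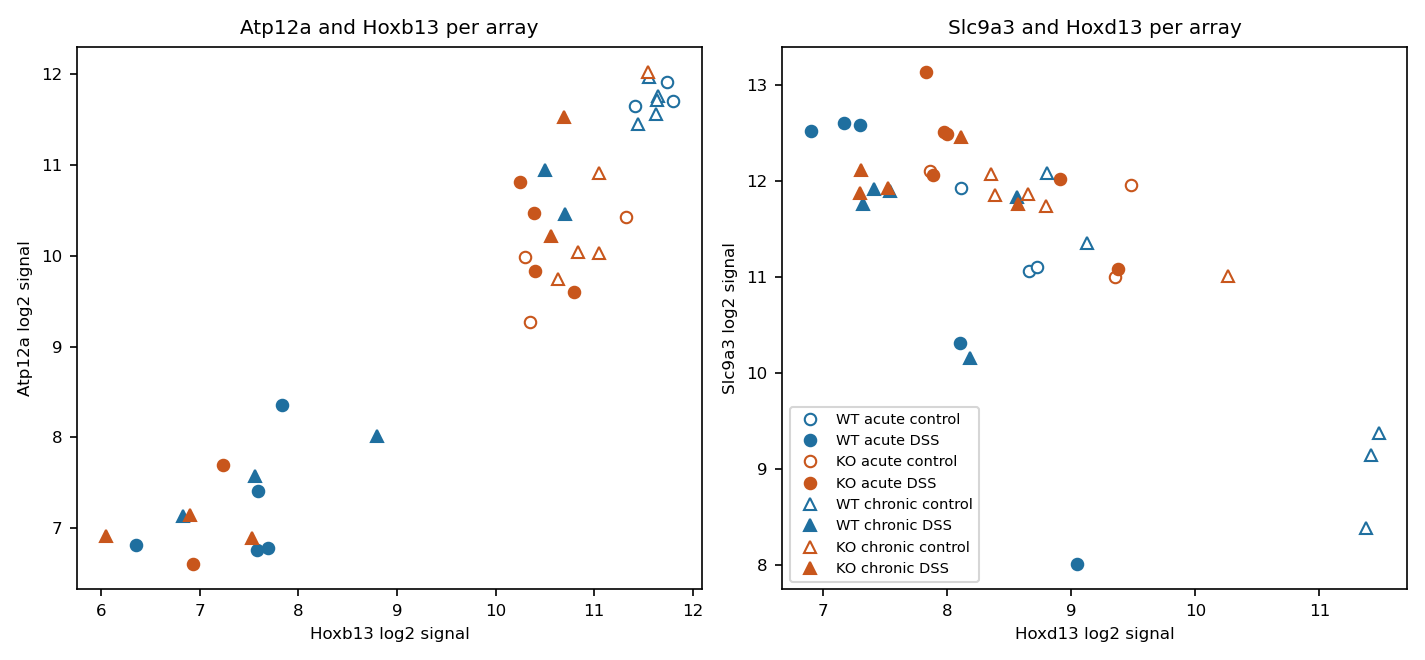
Log2 signal of Atp12a against Hoxb13 and of Slc9a3 against Hoxd13, 1 point per array, with circles for acute and triangles for chronic mice. Arrays with Hoxb13 under 9 all have Atp12a under 9, and the 3 wild-type chronic controls with Hoxd13 above 11 have Slc9a3 between 8.39 and 9.37.

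Scnn1a, the pore-forming alpha subunit of the epithelial sodium channel, fell 4.62-fold in wild types on acute DSS (-2.21 ± 0.38, adjusted p = 3.60e-05). Controls were 11.19, 11.36 and 11.53, and DSS arrays 8.50, 9.09, 7.63, 10.22 and 10.32. All 5 DSS arrays were below the controls, and without replicates 1 and 3 the value was -1.48 and still passed. The knockouts given acute DSS ranged from 9.01 to 11.00 with a median of 10.39 against controls of 10.73, 10.79 and 10.89 (-0.51 ± 0.37, adjusted p = 0.523). They divided by series, with 11.00, 10.55 and 10.93 in series 1 and 10.05, 10.24 and 9.01 in series 2, the series of those controls. Under chronic DSS the arrays of wild types (10.58 to 10.96 against 11.19 to 11.78) and of knockouts (10.40 to 11.21 against 11.45 to 11.72) did not overlap with their controls. Neither chronic difference passed, at -0.67 ± 0.33 (adjusted p = 0.192) and -0.65 ± 0.33 (adjusted p = 0.232), but each passed in a fit of its 2 groups alone (adjusted p = 0.00177 and 0.0170).

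Scnn1g and Scnn1b, neighbouring genes on chromosome 7 (7:121734420-121768482 and 7:121865038-121918728), encode the gamma and beta subunits. Scnn1g fell 2.91-fold in wild types on chronic DSS (-1.54 ± 0.43, adjusted p = 0.0150), from controls of 9.27, 9.83, 8.75, 8.77 and 8.66 to 7.99, 6.67, 8.08, 7.94 and 6.91. All 5 DSS arrays were below the controls, and the call was lost without chronic control replicate 2 or DSS replicate 2 (highest adjusted p = 0.0543). Under acute DSS the wild types gave 6.98, 7.19, 6.50, 8.04 and 8.10 against 7.94, 8.66 and 8.79, and the difference of -1.10 ± 0.50 did not pass (adjusted p = 0.0784). Knockouts on acute DSS ranged from 7.58 to 9.57 with a median of 8.56, and 4 of the 6 lay above the highest of the knockout controls (7.02, 8.41 and 7.50), with 0.94 ± 0.49 (adjusted p = 0.336). Those of series 1 gave 9.57, 8.58 and 9.33, and those of series 2, the series of these controls, gave 8.54, 7.58 and 7.91. Scnn1b passed in no comparison of DSS with control in the fit over all groups. It was 8.12, 7.91 and 8.51 in wild-type acute controls and 7.01, 8.35, 6.24, 8.25 and 7.69 under DSS (-0.67 ± 0.42, adjusted p = 0.199), and chronic wild types lay at 7.72 to 8.24 against 8.24 to 9.03 (-0.54 ± 0.36, adjusted p = 0.371, and 0.0330 in the fit of the 2 groups alone). The subunits were not equally alike over the 37 arrays, with r = 0.69 between Scnn1b and Scnn1g and r = 0.35 between Scnn1a and Scnn1g.

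Nr3c2, the mineralocorticoid receptor, fell in both wild-type comparisons. Acute controls gave 10.84, 10.76 and 10.87, and DSS arrays 8.30, 9.54, 7.57, 9.89 and 9.84. The fall was 3.47-fold (-1.80 ± 0.31, adjusted p = 3.42e-05), and without replicates 1 and 3 it was -1.07 and still passed. Under chronic DSS the wild types gave 10.18, 10.28, 9.88, 10.39 and 10.42, all below controls of 10.98, 11.11, 11.10, 11.14 and 10.90. That fall of 1.76-fold (-0.82 ± 0.27, adjusted p = 0.0375) was less secure, since the call was lost in 7 of the 10 fits that left out 1 array and with series as a covariate (-0.83, adjusted p = 0.0800). In knockouts on acute DSS Nr3c2 lay at 9.73 to 10.66 with a median of 10.39, below all 3 controls (10.90, 10.88 and 10.86), with -0.58 ± 0.30 (adjusted p = 0.341). In chronic knockouts it was 10.20 to 10.87 against 10.46 to 11.09 (-0.08 ± 0.27, adjusted p = 0.892).

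Array by array, the wild types on acute DSS were of more than 1 kind. Taking each DSS array minus the mean of its own controls, the median over the 10 genes was -2.47 in replicate 1 and -3.54 in replicate 3, with all 10 genes below the control mean in both. In replicates 2, 4 and 5 it was -0.78, -0.86 and -0.85, with 7, 7 and 8 genes below. Knockouts on acute DSS lay between -0.96 and 0.17, wild types on chronic DSS between -1.06 and -0.47 and knockouts on chronic DSS between -0.65 and 0.14. Replicates 1 and 3 also had the lowest mean signal of the 10 pan-epithelial markers, 11.67 and 10.87, against 12.31 to 12.36 in the other 3 arrays and 12.51 to 12.57 in the controls. Of these 10 markers, 9 fell in wild types on acute DSS, against 21.8% of all genes, and 3 fell without these 2 arrays, against 16.6%. The mean of 8 neutrophil markers was 10.45 and 11.21 in replicates 1 and 3, 8.99 to 9.71 in the others and 6.93 to 6.99 in controls. The mean of 8 fibroblast markers was 11.39 to 12.36 under DSS against 10.61 to 10.80, and 7 of the 8 rose, against 19.4% of all genes, and 6 without these 2 arrays, against 13.1%. Knockouts on acute DSS had pan-epithelial means of 12.17 to 12.53 and neutrophil means of 7.05 to 9.57. In wild types on chronic DSS the pan-epithelial mean was 12.46 to 12.59 against 12.49 to 12.54 in the controls. Group means there were 8.04 against 8.44 for 5 crypt base markers and 11.42 against 11.10 for 4 colonocyte transcription factors. For the neutrophil markers they were 8.40 against 7.11. The part of these cell types in the transport gene differences was not tested in either protocol.

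**Figure D4:**
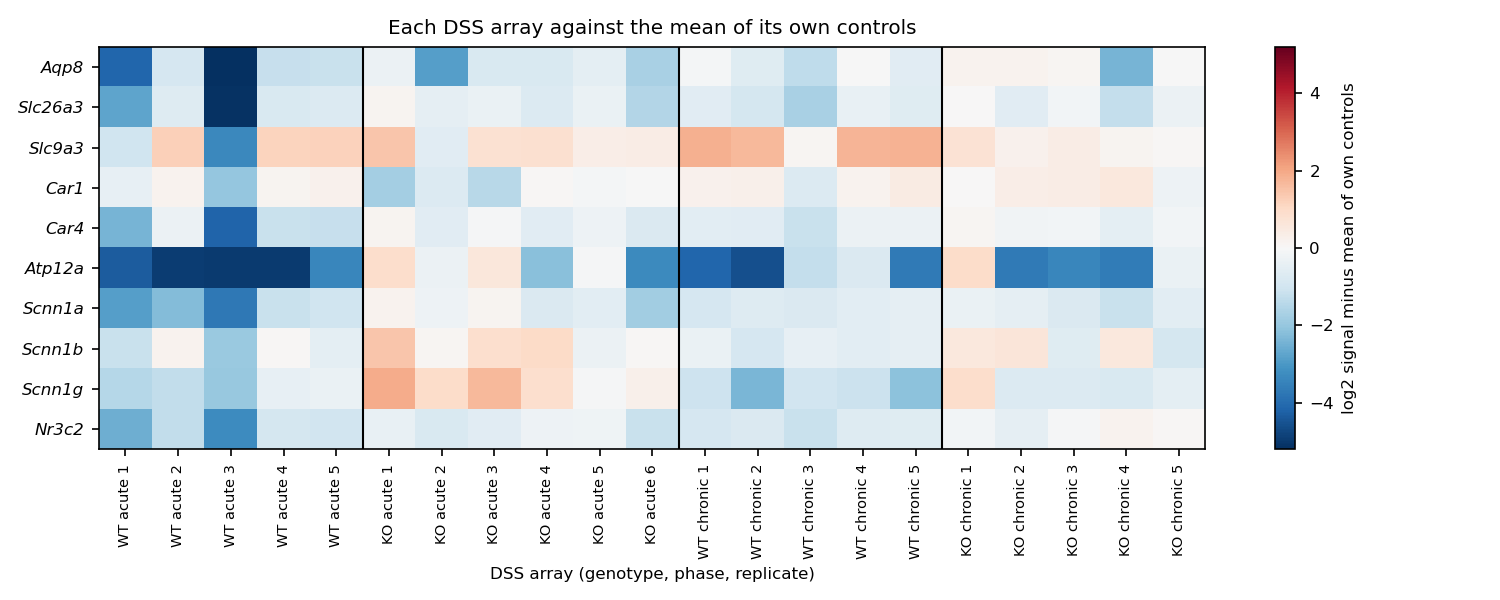
Log2 signal of each gene in each DSS array minus the mean of that group's own controls, in blue where lower and red where higher. Wild-type acute replicates 1 and 3 are blue in all 10 genes, Atp12a is dark blue in all 5 wild-type acute arrays, and Slc9a3 is red in 4 of the 5 wild-type chronic arrays and near 0 in the remaining one.

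Between the genotypes under acute DSS, 6 of the 10 genes were higher in knockouts, against 15.8% of all genes, and none lower, against 15.2%. They were Slc26a3 (1.23 ± 0.47, adjusted p = 0.0436), Car4 (1.25 ± 0.34, adjusted p = 0.00562), Scnn1a (1.14 ± 0.32, adjusted p = 0.00608), Scnn1b (0.95 ± 0.35, adjusted p = 0.0355), Scnn1g (1.22 ± 0.42, adjusted p = 0.0241) and Nr3c2 (1.28 ± 0.26, adjusted p = 3.43e-04). In none of the 10 genes were the 6 knockout and 5 wild-type arrays free of overlap, a separation that 2.96% of all genes showed upward. This comparison uses the same wild-type DSS arrays as that of DSS with control, so the counts are not independent. Its size drew much on replicates 1 and 3: without them Nr3c2 alone passed (0.55, adjusted p = 0.0206), Slc26a3 was -0.06 (adjusted p = 0.913), Car4 0.29, Scnn1a 0.42, Scnn1b 0.36 and Scnn1g 0.81. These 2 arrays were picked after the data were seen as the lowest wild types, and no knockout array was left out beside them. Dropping the lowest arrays of 1 group lowers knockout minus wild type in any case. In a fit of the 2 groups alone none passed. Within series 1, the 3 knockouts and 5 wild types gave calls for Atp12a (3.07, adjusted p = 0.00660) and Scnn1g (1.80, adjusted p = 0.0250) only. Over all arrays Atp12a missed the threshold (1.94 ± 0.77, adjusted p = 0.0516) and passed with series as a covariate (3.07, adjusted p = 0.00753). Aqp8 (1.01 ± 0.58, adjusted p = 0.188), Slc9a3 (1.01 ± 0.62, adjusted p = 0.223) and Car1 (0.15 ± 0.30, adjusted p = 0.747) did not pass. With array weights (less weight for arrays that fit poorly), Car4 (0.81), Scnn1a (0.72), Scnn1g (1.11) and Nr3c2 (0.73) kept their calls. Atp12a gained a call (2.24, adjusted p = 0.0281), while Slc26a3 (0.46) and Scnn1b (0.83) lost theirs. In the same fit Car1 was called lower in knockouts (-0.63, adjusted p = 0.0477).

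**Figure D5:**
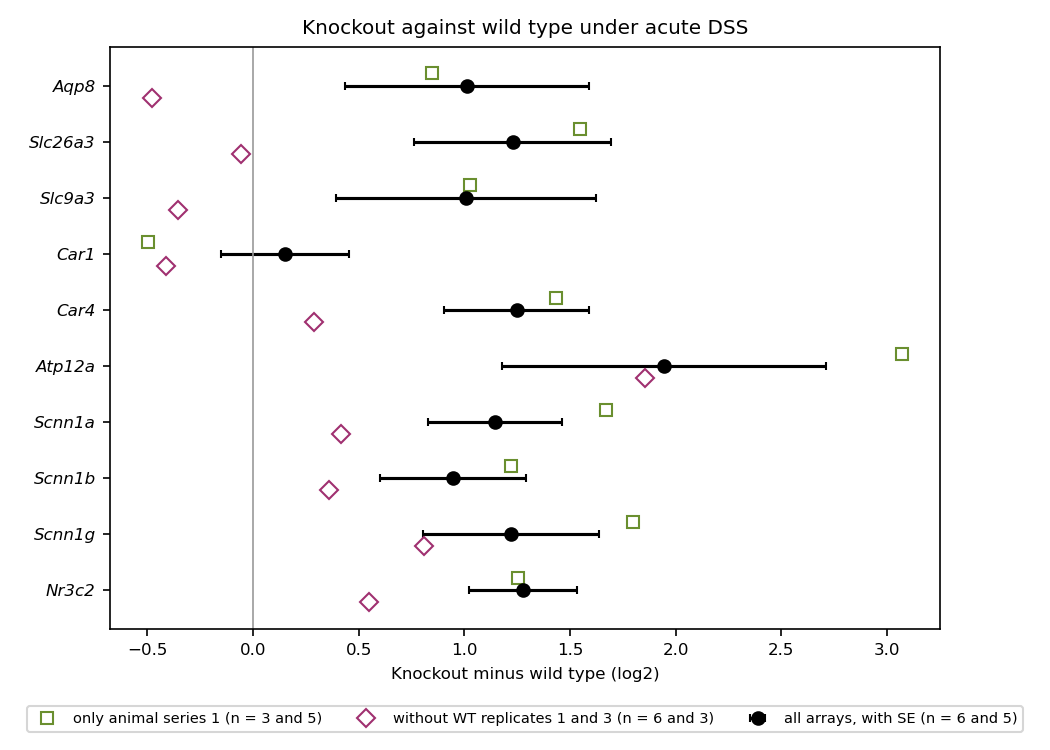
Knockout minus wild type under acute DSS for each gene (log2): all arrays with bars of 1 SE (black), only animal series 1 (green squares) and without wild-type replicates 1 and 3 (purple diamonds). All 10 values are above 0 over all arrays, and without the 2 arrays 4 of them, Aqp8, Slc26a3, Slc9a3 and Car1, are below 0.

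The test of whether the acute DSS effect differed between genotypes (the interaction, knockout minus wild type) called 2 of the 10 genes upward, against 6.51% of all genes, and none downward, against 5.75%. Atp12a differed by 3.81 ± 1.28 (adjusted p = 0.0476) and Scnn1a by 1.70 ± 0.53 (adjusted p = 0.0336). Scnn1g (2.04 ± 0.70, adjusted p = 0.0510), Nr3c2 (1.22 ± 0.43, adjusted p = 0.0579) and Car4 (1.50 ± 0.58, adjusted p = 0.0796) did not pass. Neither call held with series as a covariate, at 2.68 for Atp12a (adjusted p = 0.202) and 1.18 for Scnn1a (adjusted p = 0.160), nor without wild-type replicates 1 and 3, at 3.72 (adjusted p = 0.103) and 0.98 (adjusted p = 0.152). With array weights both held, at 4.32 for Atp12a (adjusted p = 0.00322) and 1.31 for Scnn1a (adjusted p = 0.00646). Scnn1g (2.24) and Car4 (1.07) then also passed upward, and Car1 (-1.07) downward. In the chronic protocol limma called no interaction among the 10 genes, and 0 had an unadjusted p under 0.05 (0.271% of all genes passed upward and 0.150% downward), the largest being Scnn1g at 1.18 ± 0.61 (adjusted p = 0.361) and Slc9a3 at -1.12 ± 0.91 (adjusted p = 0.590).

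Chronic and acute DSS were set against each other as effects. In wild types the Scnn1a effect was weaker in the chronic protocol by 1.54 ± 0.51 (adjusted p = 0.0342), the 1 gene of the 10 that passed, against 9.30% of all genes that passed upward and 7.71% downward. That call was lost without acute DSS replicates 1 and 3 (0.81) and in 6 of the fits that left out a single array, among them those without replicate 1 or 3. In knockouts limma called none of the 10, and 0 had an unadjusted p under 0.05 (0.00502% of all genes passed in each direction), with values between -1.30 for Scnn1g and 0.87 for Car1.

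Without DSS, no transport gene passed between the genotypes in the acute controls (0.777% of all genes passed downward and 0.341% upward) or the chronic controls (0.0301% and 0.0702%), nor did any pass between genotypes under chronic DSS (1.30% and 1.18%). At an unadjusted limma p under 0.05 the counts were 0, 2 (Slc9a3 and Scnn1g) and 0. Levels of Atp12a nevertheless differed in the acute controls without overlap, at 11.66 to 11.91 in wild types and 9.28 to 10.43 in knockouts (-1.86 ± 1.03, adjusted p = 0.457), and the fit of those 2 groups alone called it (adjusted p = 0.00690). With series as a covariate the sign turned, to 0.39 (adjusted p = 0.925), and genotype and series coincide in these controls. Hoxb13 in the same arrays was 11.41 to 11.80 in wild types and 10.29 to 11.32 in knockouts, while Hoxd10 (means of 8.12 and 9.08), Hoxd11 (7.98 and 8.51) and Hoxd13 (8.50 and 8.90) differed the other way. Car1 was higher (0.44 ± 0.41, adjusted p = 0.728) and Scnn1a lower (-0.56 ± 0.43, adjusted p = 0.640) in the knockout controls without overlap, and both also passed in that fit (adjusted p = 0.0193 and 0.0213). Their signs too turned with series as a covariate, to -0.86 for Car1 and 0.49 for Scnn1a, again through those knockout DSS arrays only. Of the 10 genes, 5 were lower and 1 higher without overlap, against 15% and 10.8% of all genes. In the chronic controls Scnn1g was 9.27, 9.83, 8.75, 8.77 and 8.66 in wild types and 7.52, 9.19, 6.97, 6.88 and 6.92 in knockouts (-1.56 ± 0.43, adjusted p = 0.165). Slc9a3 differed by 1.64 ± 0.64 (knockout minus wild type, adjusted p = 0.391) over the chronic controls and by -0.01 within series 4. When the 8 groups were ordered by mean, the arrays of neighbouring groups overlapped for every one of the 10 genes.

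Over the 37 arrays the closest pair of members was Slc26a3 and Car4 (r = 0.96), followed by Car4 and Nr3c2 (0.91), Aqp8 and Slc26a3 (0.90), Aqp8 and Car4 (0.90) and Slc26a3 and Nr3c2 (0.89). In the same order, the control arrays alone gave lower values, r = 0.82, 0.38, 0.69, 0.73 and 0.25. The lowest value over all 37 arrays was that of Slc9a3 and Atp12a (r = -0.20). Outside the list, the profile closest to that of Car4 was Slc5a8, a sodium-coupled carrier of short-chain fatty acids (0.96), and that closest to Slc26a3 was Muc3, a membrane mucin (0.95), with Cdh1, the epithelial cadherin, next (0.94). Nr3c2 lay closest to Grhl2, an epithelial transcription factor, and Ocln, a tight junction protein (0.96 each), Scnn1a to Dok4 and Acss2 (0.96 each) and Aqp8 to Hao2 (0.93). Car1 lay closest to Cyp2c55 (0.89) and Slc9a3 to Mgat4c (0.87). Scnn1g (Tle4, 0.78) and Scnn1b (Slc40a1, the iron exporter ferroportin, 0.76) had weaker neighbours. These correlations describe arrays that share groups and series.

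The wider transport machinery was followed in lists of 55 genes, of which 52 were measured. In wild types on acute DSS 24 of the 52 fell and 6 rose (median -0.45), where 21.8% of all genes fell and 19.4% rose. Without replicates 1 and 3 the counts were 15 and 8, against 16.6% and 13.1% of all genes. The potassium channels that recycle potassium across colonocytes fell in 4 of 5 cases, with Kcne3 at -2.35 ± 0.24 (adjusted p = 2.82e-08) and Kcnk5 at -1.70 ± 0.28, and Kcnma1, the large-conductance channel, rose by 0.73. Of 6 genes for sodium-proton and phosphate transport and their scaffolds 5 fell, led by the phosphate carrier Slc20a1 (-2.56 ± 0.32, adjusted p = 3.86e-07) and the exchanger Slc9a2 (-1.25 ± 0.47). Of 9 chloride and bicarbonate genes 6 fell, among them the anion channel Best2 (-2.43 ± 0.57, adjusted p = 0.00100) and Cftr, the cystic fibrosis chloride channel (-1.42 ± 0.40, adjusted p = 0.00507), while Clca4b rose by 3.53 ± 0.64 (adjusted p = 5.64e-05).

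Genes that act on the epithelial sodium channel moved on both sides. The activating proteases Prss8 (-1.26 ± 0.32, adjusted p = 0.00188), Tmprss4 (-0.98 ± 0.22, adjusted p = 7.16e-04) and St14 (-0.62, adjusted p = 0.0200) fell, and Nedd4l, the ubiquitin ligase that removes the channel from the membrane, rose by 0.60 ± 0.14 (adjusted p = 0.00107). Sgk1, the aldosterone-induced kinase, gave -0.47 (adjusted p = 0.259). Hsd11b2, the enzyme that protects the mineralocorticoid receptor from glucocorticoids, fell (-1.34 ± 0.52, adjusted p = 0.0395), and the glucocorticoid-responsive genes Per1 (0.76) and Fkbp5 (0.71) rose. Fxyd4, the corticosteroid-induced subunit of the sodium pump, fell (-1.93 ± 0.37, adjusted p = 1.08e-04). Of 9 other carbonic anhydrases Car2 fell (-1.14 ± 0.30, adjusted p = 0.00319) and Car12, the membrane-bound form, rose (1.23 ± 0.42, adjusted p = 0.0178). Of 3 guanylin system genes the ligand Guca2a (-1.32, adjusted p = 0.0489) and its receptor Gucy2c (-0.88, adjusted p = 0.0262) fell. Of 5 other water channels 1 fell, Aqp11 (-1.20 ± 0.33, adjusted p = 0.00424), and Aqp4 gave -0.97 (adjusted p = 0.168). Beside all these lists, 21.8% of all genes fell and 19.4% rose, and 1 of 5 water channels is near that downward share. Without wild-type replicates 1 and 3, no guanylin gene, water channel or gene of the 5 listed with Hsd11b2 fell, against 16.6% of all genes. Then 1 guanylin gene and 2 of those listed with Hsd11b2 rose, against 13.1%. Of the genes that act on the sodium channel 2 fell and 1 rose, and of the carbonic anhydrases 1 fell and 1 rose.

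In the other comparisons of DSS with control fewer of the 52 passed. In knockouts on acute DSS, where 0.853% of all genes fell and 0.266% rose, 2 fell, Slc20a1 (-1.21 ± 0.31, adjusted p = 0.0421) and Ano1 (-0.87 ± 0.23, adjusted p = 0.0460), and 1 rose, Clca4b (2.97 ± 0.61, adjusted p = 0.0125). In wild types on chronic DSS 9 fell and 6 rose, against 8.58% and 5.79% of all genes, with Clca4b at 3.38 ± 0.55, Car12 at 2.43 ± 0.36 (adjusted p = 2.26e-05), Slc20a1 at -2.16 ± 0.27 and Fxyd4 at -2.06 ± 0.32. In knockouts on chronic DSS 3 fell (Slc20a1, Ano1 and Pdzk1) and 2 rose (Clca4b at 2.33 ± 0.55 and Car12 at 1.14 ± 0.36), counts near those that the shares of all genes, 5.47% and 2.47%, give for a list of this size. With wild types on acute DSS included, Slc20a1 and Ano1 fell and Clca4b rose in all 4 comparisons of DSS with control. Ano1, a calcium-activated chloride channel, Pdzk1, a scaffold of apical transporters, Kcnma1, Nedd4l and Sgk1 were named after their values were seen. Under acute DSS 17 of the 52 were higher in knockouts than in wild types and 4 lower, with Kcne3 at 1.48 ± 0.20 and Tmprss4 at 1.18 ± 0.18 among the higher and Nedd4l at -0.48 ± 0.12 among the lower, where 15.8% of all genes were higher and 15.2% lower. Without wild-type replicates 1 and 3 the counts were 3 and 3, against 5.50% and 6.97% of all genes.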

How the data were processed

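Affymetrix Mouse Gene 1.0 ST arrays measured colon RNA, 1 array for each of 37 mice. The values as the authors deposited them are log2 signals per transcript cluster after robust multi-array averaging (RMA), per the submitters' processing notes, with no version; the log base is not given there and was read as 2 from their range, 3.03 to 14.96. Of 35511 clusters, 21789 had 1 gene symbol, 1621 several and 12101 were not listed in the probe annotation. For the 999 genes with several clusters the one with the highest mean was kept, which left 19938 genes. Groups followed the sample titles, and each title carries its own animal number.

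All arrays entered 1 linear model with 8 group means (limma 3.58.1 in R 4.3.3, empirical Bayes, 29 residual degrees of freedom). The 12 comparisons were adjusted by the Benjamini-Hochberg method over all genes at 0.05, two-sided, and the model was tested on simulated data. Members and gene lists were chosen with earlier results of these data known. Besides the members, the 3 genes of each transport list with the largest absolute difference in wild types on acute DSS were named, and the 3 genes closest to each member by Pearson r were listed. As alternatives the fit was repeated with array weights, with cyclic loess, with a prior that was trended and robust, with every cluster, without the dimmest genes, with animal series as a covariate or within 1 series, with the compared groups alone, without 2 arrays that had Y-linked signal, and without each array in turn. Leaving out wild-type acute DSS replicates 1 and 3 together was added after the data were seen. Promoter sequences came from RefSeq (GRCm38.p6). With 3 to 6 arrays per group, the number of arrays limits the precision, and no 2 arrays were identical.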

Additional observations from a re-analysis of the deposited data

Results flagged for a closer look

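In groups of 4 to 10 arrays, 6 of 60 sets of values had 1 array set apart from the rest by Dixon's criterion, where chance gives about 1 in 20, or 3. Aqp8 was 10.0 in knockout chronic DSS replicate 4, with the next array at 12.38. It was 12.17 in wild-type chronic control replicate 3, with the next at 12.46. Wild-type chronic DSS replicate 3 was low in both Car1, at 13.11 against 13.98 in the next array, and Slc9a3, at 10.16 against 11.75. Scnn1g was high in knockout chronic control replicate 2, at 9.19 against 7.52, and in knockout chronic DSS replicate 1, at 8.43 against 6.98.

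In limma's interaction test over all arrays, the response to acute DSS differed between the genotypes for Atp12a, by 3.81 log2 units, and for Scnn1a, by 1.70. Neither call held with series as a covariate (2.68, adjusted p = 0.202, and 1.18, adjusted p = 0.160) or without wild-type acute DSS replicates 1 and 3 (3.72 and 0.98), and leaving out 1 array ended the Atp12a call in 14 of 17 fits. Both calls held with array weights (4.32 and 1.31). The wild-type response of Scnn1a was weaker in the chronic than in the acute protocol by 1.54 in limma's test of that difference, a call lost without those 2 arrays (0.81, adjusted p = 0.206), with array weights (0.82) and in the fit of the 4 groups alone (adjusted p = 0.0710).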

How the results depend on the processing

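Over 120 gene-by-comparison differences and 2520 values under the alternatives, the 18 calls gave 364 values. Of these 269 stayed past the threshold, 94 lost the call with the same direction and 1 changed sign. With the direction kept, 61 calls were gained, and Car1 between genotypes under acute DSS gained a call with its sign changed. Another 95 values changed sign without passing under either setting, the largest being Atp12a between the acute controls, at -1.86 and, with series as a covariate, 0.39. That covariate was set there by knockout acute DSS arrays only, since genotype and series coincide in the acute controls. Of 252 counts, 197 stayed within 1.5 times.

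Between genotypes under acute DSS, Car1 became -0.63 with array weights, a call (adjusted p = 0.0477), and Slc26a3 -0.059 without wild-type replicates 1 and 3. The count there was 6, and 0 with the groups compared alone, 2 within series 1 and 1 without those replicates. Array weights kept Car4, Scnn1a, Scnn1g and Nr3c2, lost Slc26a3 and Scnn1b and added Atp12a. For wild types the count of 6 under acute DSS was 3 with the groups alone, and that of 3 under chronic DSS was 6 with array weights, 7 with the groups alone and 6 within series 3. In knockouts the counts of 0 became 3 (acute) and 2 (chronic) with array weights, and 1 (chronic) with the groups alone. Between genotypes the count of 0 became 3 in the acute controls with the groups alone and 2 in the chronic controls with array weights. The acute interaction count of 2 was 1 with the trended and robust prior, with all clusters tested and without the arrays with Y-linked signal, 4 without the dimmest genes, 5 with array weights, and 0 with series as a covariate, with the groups alone and without wild-type replicates 1 and 3. The chronic interaction gave 1 with array weights. Chronic against acute DSS gave 1 in knockouts with array weights, and in wild types 2 with series as a covariate, 0 with the groups alone and 0 without those replicates.

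Leaving out 1 array gave counts of 6 to 7 and 0 to 0 (acute DSS, wild type and knockout), 1 to 3 and 0 to 1 (chronic DSS), 0 to 0 (genotypes, acute controls), 3 to 7 (acute DSS), 0 to 1 (chronic controls), 0 to 0 (chronic DSS), 0 to 4 and 0 to 0 (acute and chronic interaction), and 0 to 2 and 0 to 0 (chronic against acute, wild type and knockout). Under acute DSS between genotypes, Slc26a3 lost its call in 7 such fits, Scnn1b in 5 and Scnn1g in 4, each among them without wild-type replicate 1 or 3; the Atp12a interaction was lost in 14 and that of Scnn1a in 9. No paired analysis was possible because the replicate numbers only follow accession order.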
